A study of Homo sapiens with 12 samples.

Results

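Of 10743 genes tested in A549 cells, 60 differed by at least 0.8 log2 units both between cells that overexpress TIF1γ and their vector control and between cells with a TAF15 knockdown and their sh-NC control. Among them, 32 genes stood higher under both manipulations, 10 stood lower under both, and 18 moved in opposite directions. Each effect is the difference of group means on log2(FPKM + 1) (FPKM counts fragments per length of transcript and per mapped total), so it understates the change of weakly expressed genes. Before the difference was taken, each library's trend on transcript GC percent and transcript length was removed. A gene was tested when it reached 3 FPKM in at least 2 of the 8 libraries. The same values chose the 60 genes and describe them, so the effects of these genes are given here as a description and support no test.

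A549 is an established human lung adenocarcinoma line. The libraries came from lines made stable with lentivirus: 3 vector libraries (replicates 1, 2 and 3, genotype wild type), 2 with TIF1γ overexpression (2 and 3), 1 sh-NC library (2, wild type) and 2 with TAF15 knockdown by shRNA (sh-TAF15, 2 and 3). Every control carried the empty lentiviral construct that corresponds to its treated line. Another 4 of the 12 labelled samples are not analysed here. The labels describe the replicates as biological, but do not say whether they came from separately made lines, so p-values measure the spread between these libraries.

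TIF1γ, the product of TRIM33, is a nuclear ubiquitin ligase that limits SMAD4 activity downstream of TGF-beta, a signal that drives epithelial cells toward a mesenchymal state. TAF15 binds RNA, belongs with EWSR1 to the FET proteins, and was found as a partner of TBP, the TATA-binding protein. The study placed TIF1γ and TAF15 on a common path to gene control in lung cancer cells, and the comparison asks whether raising the one and lowering the other shifted the same genes the same way. The effects share no library, since each has its own control. The sh-NC control is a single library, so both sh-TAF15 differences rest on it, and its spread was assumed to equal that of the other groups.

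The FPKM values of a library summed to between 881293 and 1356634, and 12132 to 12622 genes reached 1 FPKM. No read totals come with the values. The smallest steps between low values put the relative depth of the libraries between 0.790 and 1.04 of vector replicate 1. The epithelial keratin gene KRT7 ran from 1516 to 3746 FPKM over the 8 libraries, whereas KRT19 was at 26.9 to 61.7 FPKM in the vector and TIF1γ libraries and at 0.243 to 0.775 FPKM in the 3 sh libraries. Of 12 fibroblast markers 8 stayed under 1 FPKM in every library, as did 8 of 12 leukocyte markers (PTPRC at most 0.0227 FPKM), and 7 of the 9 endothelial markers that were found. Other markers on these lists were well expressed, FBLN1 up to 275 FPKM, CD14 up to 35 and CD68 up to 52.1. As these are bulk RNA values, fewer cells of a type and less RNA per cell cannot be told apart.

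TRIM33 was at 2.23, 2.10 and 1.27 FPKM in the vector libraries and at 8.03 and 6.14 FPKM with TIF1γ, without overlap. Its TIF1γ effect was 2.04 (SE 0.25, limma adjusted p = 0.211), while its sh-TAF15 effect was 0.03. Without trend removal these effects were 1.45 (SE 0.29) and -0.29. ENSG00000172660, taken here as the target of the knockdown, was not matched to a symbol and has no annotated transcript for the trend. It had a mean of 50.1 FPKM in vector (SD 16.7) and of 42.5 FPKM with TIF1γ. It was at 107 FPKM in sh-NC, the highest of the 8 libraries, and at 26.3 and 17.4 FPKM in the sh-TAF15 libraries. It thus stood lower with sh-TAF15 than in every vector library, but by less than against the single sh-NC library. Its sh-TAF15 effect without trend removal was -2.33 (SE 0.40, limma adjusted p = 0.0288), and its TIF1γ effect was -0.27. Each targeted gene thus differed in its own comparison and hardly in the other.

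The 32 genes that stood higher in both effects are 0.298% of those tested, the 10 that stood lower are 0.0931%, and the 18 opposite ones are 0.168%. Past 0.8 log2 in a single effect were 134 genes upward (1.25%) and 84 downward (0.782%) for TIF1γ, and 334 upward (3.11%) and 218 downward (2.03%) for sh-TAF15. Of the genes upward with TIF1γ, 23.9% were also upward with sh-TAF15 and 7.46% were downward. Of those downward with TIF1γ, 11.9% were downward with sh-TAF15 and 9.52% upward. Over protein-coding genes alone, those downward with TIF1γ were downward with sh-TAF15 in 11.6% and upward in 0%. More genes stood higher in both than lower in both, but without trend removal this turned, with 50 higher, 69 lower, and 11 and 9 in the opposite classes.

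**Figure D1:**
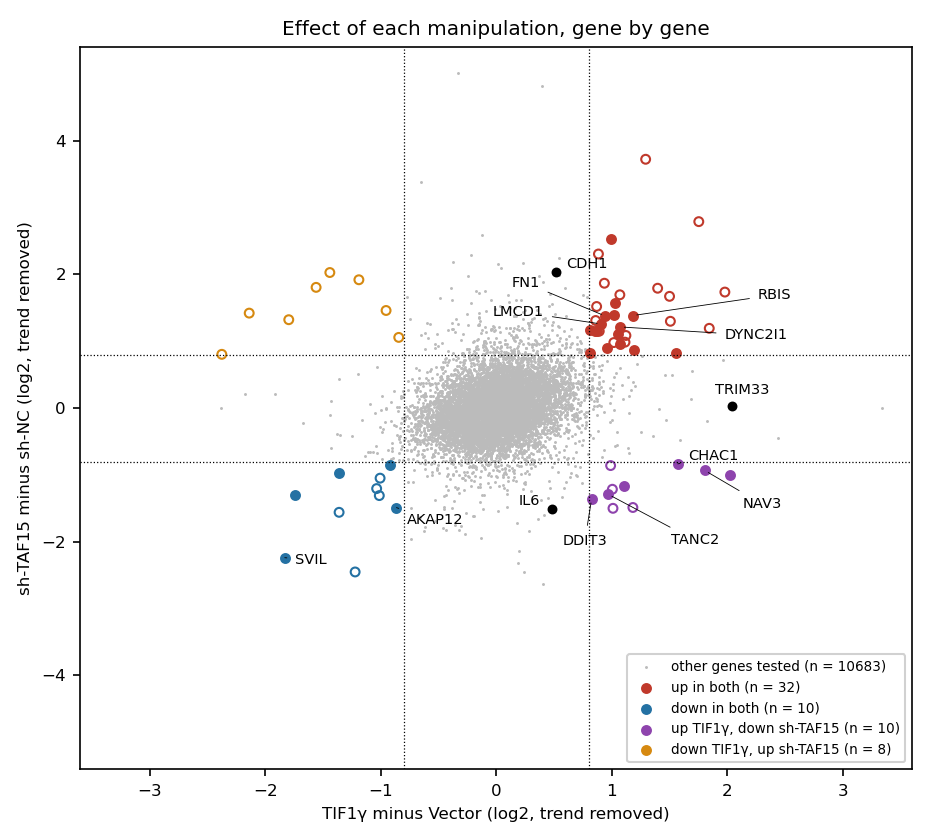
Each point is 1 of the 10743 genes tested, with its TIF1γ effect on the horizontal axis and its sh-TAF15 effect on the vertical axis, both as log2 differences after trend removal. Dotted lines mark 0.8, filled coloured points are protein-coding and open ones are not, and the named black points TRIM33, CDH1 and IL6 lie outside the shared corners. The upper right corner holds 32 genes and the lower left 10.

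Across all genes tested, the signs of both effects were the same for 60.3%. Pearson's r between the effects was 0.247 and Spearman's rho was 0.275. This is a correlation across genes, which share the libraries, their depth and base composition and are not independent replicates, so it carries no p-value. It was 0.278 over protein-coding genes and 0.149 over the others, and by mean level it was 0.211 under 10 FPKM, 0.251 from 10 to 30 FPKM and 0.311 at 30 FPKM or more. Taken library by library against the control mean, r was 0.146 for TIF1γ 2 with sh-TAF15 2, 0.280 for TIF1γ 2 with sh-TAF15 3, 0.140 for TIF1γ 3 with sh-TAF15 2, and 0.127 for TIF1γ 3 with sh-TAF15 3. Before trend removal r was 0.441. In that state the TIF1γ effect followed transcript GC percent with a rho of 0.779 across genes and the sh-TAF15 effect with 0.402, against 0.03 and 0.00 afterwards.

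No gene passed a test of a shared direction. The limma fit with Benjamini-Hochberg adjustment called 0 genes for TIF1γ (0%), with 908 (8.45%) at an unadjusted p under 0.05. It called 2 for sh-TAF15 (0.0186%, with 756 or 7.04% unadjusted) and 2 for the difference between the effects (0.0186%, with 481 or 4.48% unadjusted), none of them among the 60. For the mean of both effects it called 0 (0%), with 1206 (11.2%) unadjusted, 633 upward and 573 downward. Requiring the same sign and a p under 0.05 in each effect left 96 genes (0.894%) unadjusted, 73 upward and 23 downward, and 0 after adjustment. The smallest adjusted p was 0.0841 for the mean effect and 1 for the shared direction. The mean can be carried by 1 effect alone, so it is no test of a shared direction. Its smallest adjusted p was that of the pseudogene ENSG00000219928, with effects of -0.33 for TIF1γ and 5.02 for sh-TAF15. That gene and the pseudogene HSPB1P1 were the only calls, and both reached 3 FPKM only in the sh-TAF15 libraries. Words such as higher and lower below describe measured values, not called changes.

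Protein-coding genes made up 21 of the 42 genes with a shared direction and 6 of the 18 opposite ones, against 91.3% of all genes tested. None of the 8 genes that stood lower with TIF1γ and higher with sh-TAF15 was protein-coding, while 6 of the 10 with the reverse pattern were. The median level of the 32 genes that stood higher in both was 5.86 FPKM over the 8 libraries, and that of the 10 lower ones was 2.61 FPKM, against 13.1 FPKM for all genes tested. At least 1 library was listed at 0 for 12 of the 32 and 5 of the 10. The members were thus weaker and less often protein-coding than all genes tested. Genes past 0.8 log2 in a single effect were also less often protein-coding than all genes tested. Protein-coding were 82 of the 134 upward and 43 of the 84 downward with TIF1γ. With sh-TAF15 these were 239 of the 334 upward and 142 of the 218 downward.

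At the edge of the threshold, the zinc finger gene ZNF599 was the last inside among genes higher in both, with effects of 0.81 and 0.82, and the pseudogene WFDC21P was the first outside with 0.92 and 0.80. Among genes lower in both, HBA2 was the last inside, with -0.92 and -0.85, and ENSG00000273014 the first outside with -0.85 and -0.78. For the opposite corners DDIT3 lay just inside with 0.83 and -1.36 and PITPNB just outside with 0.74 and -1.12. ATP5MFP2 lay just inside with -2.38 and 0.80, and ENSG00000176868 just outside with -0.77 and 1.65.

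Promoters of genes that stood higher in both effects are shown to make visible what the letters near their start sites share. RefSeq sequences of build GRCh38.p14, a newer build than the GRCh37 of the expression values, were found for 29 of the 60 members. The 250 bases before the start of 4 protein-coding members with 1 listed start each follow, 5′ to 3′ on the gene's strand, with letters of the motifs searched in capitals.
MMP24OS (chr20:35278123-35278372, minus strand): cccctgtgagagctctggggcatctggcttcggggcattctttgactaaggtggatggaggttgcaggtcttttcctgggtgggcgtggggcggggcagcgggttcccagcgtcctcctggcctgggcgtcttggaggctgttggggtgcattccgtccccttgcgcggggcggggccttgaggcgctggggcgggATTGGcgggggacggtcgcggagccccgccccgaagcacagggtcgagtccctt
LMCD1 (chr3:8501573-8501822, plus strand): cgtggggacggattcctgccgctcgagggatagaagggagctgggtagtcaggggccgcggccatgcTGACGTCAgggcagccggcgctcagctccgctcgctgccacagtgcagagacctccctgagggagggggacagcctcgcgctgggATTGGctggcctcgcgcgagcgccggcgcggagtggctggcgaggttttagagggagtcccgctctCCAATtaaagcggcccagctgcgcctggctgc
ZNF264 (chr19:57191250-57191499, plus strand): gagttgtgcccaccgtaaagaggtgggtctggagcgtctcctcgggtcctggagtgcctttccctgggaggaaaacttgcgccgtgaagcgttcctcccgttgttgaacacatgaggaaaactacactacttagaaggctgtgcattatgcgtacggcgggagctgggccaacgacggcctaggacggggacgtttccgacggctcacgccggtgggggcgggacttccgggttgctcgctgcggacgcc
PLLP (chr16:57284673-57284922, minus strand): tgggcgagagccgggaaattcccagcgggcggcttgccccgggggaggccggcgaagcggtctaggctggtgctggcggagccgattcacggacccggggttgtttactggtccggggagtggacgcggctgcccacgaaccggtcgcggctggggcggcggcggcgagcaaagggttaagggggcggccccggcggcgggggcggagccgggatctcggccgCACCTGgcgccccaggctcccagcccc

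The motifs searched on both strands were the TATA box (TATAAA), the E-box bound by ZEB and SNAI repressors (CAGGTG), the palindromic SMAD element (GTCTAGAC), the SMAD doublet (2 copies of CAGAC with 4 bases between them), the AP-1 element (TGACTCA), the cAMP response element (TGACGTCA), the antioxidant response element core (TGACNNNGC) and the CCAAT box (CCAAT). No 2 marked stretches overlapped in the 4 promoters shown. LMCD1 holds a cAMP response element 183 bases before the start and CCAAT boxes at 98 and 32 bases. MMP24OS holds a CCAAT box 54 bases before the start, PLLP an E-box 27 bases before it, and ZNF264 none of the motifs. Of 23 listed promoters of 18 genes that stood higher in both, 3 (13%) held the cAMP response element, those of FN1, H4C8 and LMCD1, against 1.65% of all 35116 promoters. The CCAAT box was in 9 of the 23 (39.1%, against 32%) and the E-box in 6 (26.1%, against 17.5%), of which DYNC2I1 and TSGA10 gave 2 each. The TATA box was in none (10.7% of all promoters), nor were the AP-1 element (4.2%), the antioxidant core (10.9%) or either SMAD motif (0.182% and 0.0541%). Of 10 listed promoters of 5 genes lower in both, only 1, of AKAP12, held any of these motifs, a CCAAT box. These matches describe letters, several promoters belong to 1 gene, and the values do not tell which start site the cells used.

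Among secreted and surface proteins higher in both effects, the gene with the highest level was FN1, which encodes the matrix glycoprotein fibronectin, a marker of mesenchymal cells. Its FPKM was 81.1, 106 and 153 in vector, 109 and 237 with TIF1γ, 28.0 in sh-NC, and 56.5 and 71.0 with sh-TAF15. The lower TIF1γ library lay within the vector range, whereas both sh-TAF15 libraries lay above sh-NC and below every vector library. The effects were 0.94 (SE 0.35) and 1.38 (SE 0.47). Without trend removal they were 0.47 and 1.08, so FN1 then left the group.

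RARRES1, a retinoic acid receptor responder, was at 2.59, 2.03 and 13.8 FPKM in vector and 7.84 and 15.2 with TIF1γ, and at 0.388 in sh-NC against 2.68 and 1.03 with sh-TAF15. One TIF1γ library lay inside the vector range. CD38, an ectoenzyme that consumes NAD, was at 1.30, 1.04 and 2.60 FPKM in vector and 3.19 and 1.81 with TIF1γ, and at 2.98 in sh-NC against 7.37 and 6.36 with sh-TAF15. Its groups overlapped for TIF1γ. CXCR5, a chemokine receptor known from B cells, was scattered within groups, at 6.48, 12.3 and 0 FPKM in vector, 12.4 and 9.69 with TIF1γ, 0.973 in sh-NC, and 0.734 and 17.9 with sh-TAF15. PLLP encodes plasmolipin, a membrane protein of myelin and epithelia. It was at 3.10, 5.13 and 5.24 FPKM in vector, 9.10 and 7.35 with TIF1γ, 3.66 in sh-NC, and 7.4 and 9.87 with sh-TAF15, without overlap in either comparison. Without trend removal the TIF1γ effect of PLLP was 0.70, under the threshold.

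LMCD1, a LIM-domain cofactor that restrains GATA factors, gave 1 of the cleaner patterns. It was at 26.7, 28.9 and 42.5 FPKM in vector and 51.0 and 51.5 with TIF1γ, and at 11.1 in sh-NC against 22.3 and 26.9 with sh-TAF15. All treated libraries lay above their controls, with effects of 0.91 (SE 0.24) and 1.26 (SE 0.32). Without trend removal the effects were 0.58 and 1.01, so LMCD1 then left the group. The sh-NC value was the lowest of the 8 libraries, and the sh-TAF15 libraries lay near or below the lowest vector value.

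RBIS, a factor of ribosome biogenesis, was at 37.8, 61.3 and 47.8 FPKM in vector, 123 and 57.5 with TIF1γ, 34.9 in sh-NC, and 92.9 and 109 with sh-TAF15. As deposited, the second TIF1γ value lay within the vector range, and after trend removal both lay above it, with effects of 1.18 (SE 0.35) and 1.38 (SE 0.48). DYNC2I1 encodes an intermediate chain of the dynein that moves cargo inside cilia. It was at 3.85, 3.99 and 6.34 FPKM in vector and 9.51 and 8.83 with TIF1γ, and at 3.41 in sh-NC against 6.74 and 10.2 with sh-TAF15. Its groups did not overlap, and its effects were 1.07 (SE 0.28) and 1.21 (SE 0.37). Without trend removal the TIF1γ effects were 0.71 for RBIS and 0.78 for DYNC2I1, under the threshold.

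MMP24OS, transcribed opposite the metalloproteinase gene MMP24, was at 69.5, 86.0 and 72.0 FPKM in vector, 147 and 95.6 with TIF1γ, 46.4 in sh-NC, and 67.6 and 134 with sh-TAF15. Its treated libraries lay above their controls, by 1.07 (SE 0.30) and 0.96 (SE 0.41). RPS10-NUDT3, a readthrough transcript of a ribosomal protein gene and its neighbour, had effects of 1.06 and 1.11. Without trend removal the TIF1γ effects of MMP24OS and RPS10-NUDT3 were 0.56 and 0.71, under the threshold. Reads of the parent genes and of overlapping antisense genes may be counted to such loci, so both are uncertain.

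The zinc finger genes ZNF264 and ZNF599 had TIF1γ effects of 0.96 and 0.81 and sh-TAF15 effects of 0.90 and 0.82. Without trend removal these were 0.49 and 0.45 for TIF1γ and 0.60 and 0.66 for sh-TAF15, under the threshold. H4C8, a replication-type histone H4 gene, was at 1.74, 2.18 and 2.78 FPKM in vector, 4.38 and 3.55 with TIF1γ, 1.93 in sh-NC, and 8.06 and 3.95 with sh-TAF15. Histone H4 genes are near-identical copies, so its reads may be split among them. TSGA10, a sperm-tail gene, had a TIF1γ effect of 1.55 (SE 0.69) though vector replicate 1, at 8.04 FPKM, exceeded both TIF1γ libraries, at 6.78 and 6.57, before trend removal. SAMD11 was at 9.73, 7.88 and 24.9 FPKM in vector, 40.0 and 43.8 with TIF1γ, 1.89 in sh-NC, and 6.40 and 15.7 with sh-TAF15. After trend removal the SAMD11 groups overlapped for TIF1γ. The remaining protein-coding member higher in both, ENSG00000256514, was at 0 in sh-NC and at 3.23 and 15.6 FPKM with sh-TAF15.

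**Figure D2:**
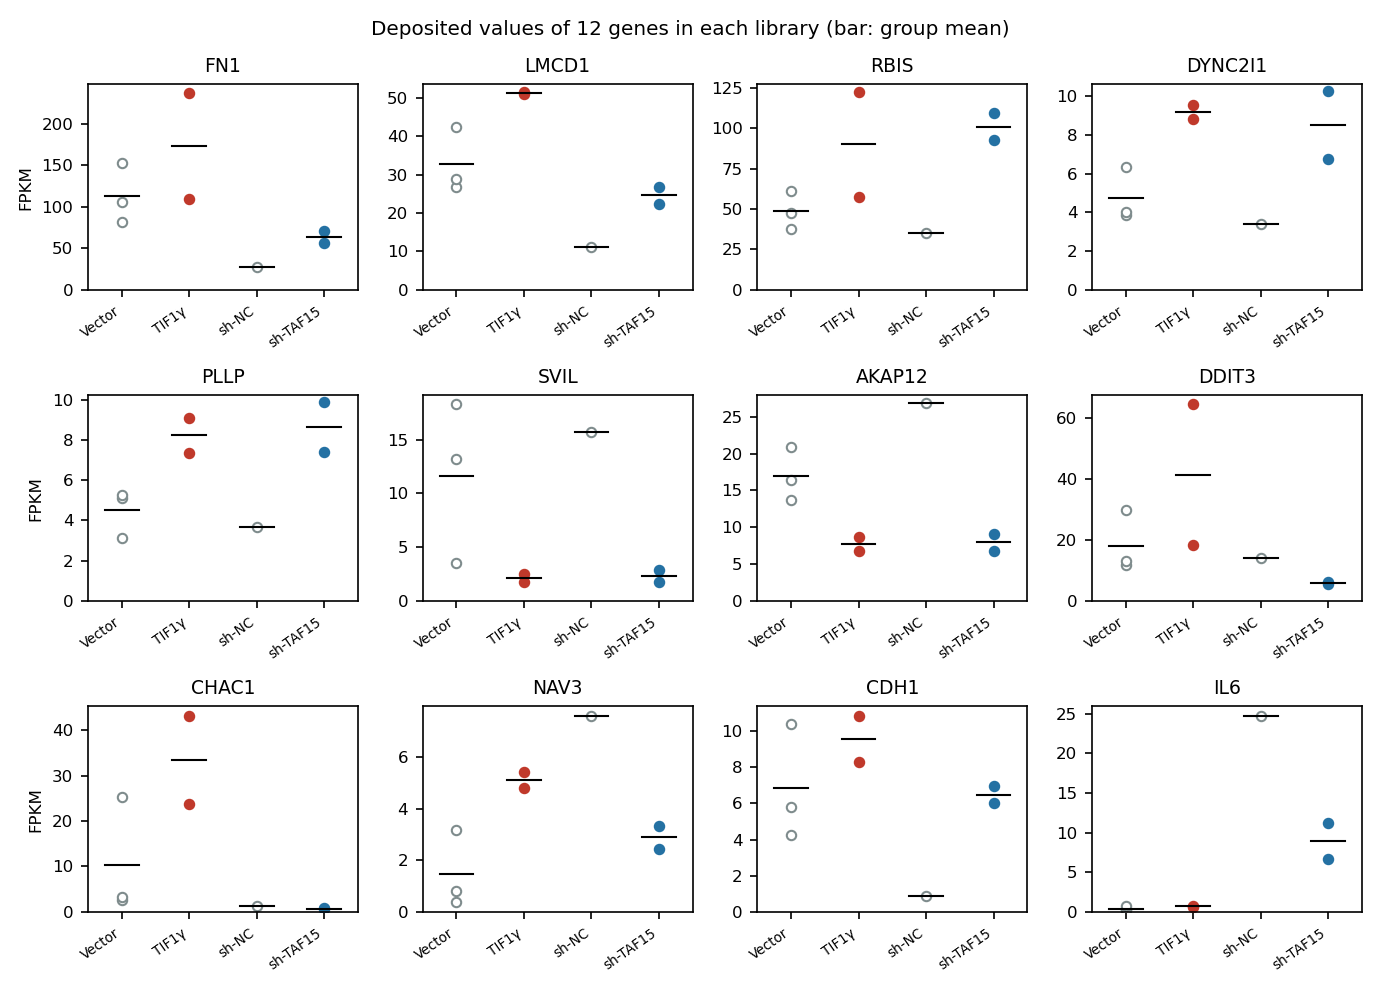
Points are the deposited FPKM of 12 genes in each of the 8 libraries on axes that start at 0, with control groups open, treated groups filled and the group mean as a bar. The treated libraries of LMCD1, DYNC2I1 and PLLP lie above their own controls, those of SVIL and AKAP12 below theirs, and DDIT3, CHAC1 and NAV3 have opposite directions. For IL6 the sh-NC value of 24.7 FPKM stands far above the vector and TIF1γ libraries.

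The other 16 genes higher in both were 6 processed pseudogenes and 10 long noncoding RNAs. LINC01060, a long intergenic RNA, was at 0.742, 0.604 and 0 FPKM in vector, 1.85 and 2.04 with TIF1γ, 1.92 in sh-NC, and 6.71 and 9.82 with sh-TAF15. Its groups did not overlap, with effects of 1.5 (SE 0.25) and 1.67 (SE 0.33). SP2-DT, a transcript divergent from the SP2 gene, was at 6.38, 9.81 and 4.86 FPKM in vector, 15.3 and 11.6 with TIF1γ, 5.19 in sh-NC, and 14.6 and 14.1 with sh-TAF15, again without overlap. KANSL1-AS1, antisense to a chromatin regulator gene, had effects of 1.02 and 0.98, and LINC02298 had 0.94 and 1.87.

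RPS27P4, a pseudogene copy of a ribosomal protein gene, was at 5.64, 13.3 and 16.7 FPKM in vector, 24.4 and 33.7 with TIF1γ, 18 in sh-NC, and 54.2 and 94.6 with sh-TAF15. The pseudogenes RPL32P24 and SNRPGP2 were listed at 0 in all 3 vector libraries, so no fold is given for them. RPL32P24 reached 1.67 and 2.41 FPKM with TIF1γ, and SNRPGP2 was at 0 and 6.71. Pseudogenes share sequence with their parent genes, and their reads may be split with them, so all 6 are uncertain. DNAJC27-AS1, the noncoding member with the highest sh-TAF15 effect at 3.72, was at 0.201, 0 and 11.4 FPKM in vector, so its TIF1γ libraries, at 4.10 and 6.81, lay inside the vector range.

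Lower in both effects, SVIL had the largest smaller effect of all 60 members. It encodes supervillin, a membrane-bound protein that ties actin and myosin to the plasma membrane. SVIL was at 3.53, 13.2 and 18.3 FPKM in vector and 1.74 and 2.47 with TIF1γ, and at 15.7 in sh-NC against 2.85 and 1.77 with sh-TAF15. All 4 treated libraries lay below all 4 controls, although vector replicate 1 stood well below the other controls. The effects were -1.83 (SE 0.53) and -2.24 (SE 0.71), and without trend removal -1.88 and -2.38.

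AKAP12 encodes gravin, a scaffold that holds protein kinases A and C at the membrane and cytoskeleton. It was at 20.9, 16.4 and 13.7 FPKM in vector, 6.76 and 8.65 with TIF1γ, 26.9 in sh-NC, and 9.13 and 6.72 with sh-TAF15. Here too every treated library lay below every control, and the vector spread was small beside the difference. The effects were -0.86 (SE 0.20) and -1.49 (SE 0.27), with an unadjusted p of 0.00224 and an adjusted p of 0.565 for TIF1γ in the limma fit.

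ZNF778, a zinc finger gene, was at 16.6, 10.7 and 4.88 FPKM in vector, 4.53 and 0.831 with TIF1γ, 7.75 in sh-NC, and 1.80 and 2.72 with sh-TAF15. After trend removal its groups overlapped for TIF1γ. HTD2, a dehydratase of mitochondrial fatty acid synthesis, was at 0.323, 3.90 and 1.71 FPKM in vector and at 0 in both TIF1γ libraries. It was at 2.70 in sh-NC, and at 0 and 3.18 with sh-TAF15, so as deposited the sh-TAF15 libraries lay on either side of their control. The hemoglobin gene HBA2 was at 0, 0.643 and 0 FPKM in vector and at 0 with TIF1γ, and its TIF1γ effect of -0.92 was -0.25 without trend removal. With a transcript GC percent of 67.3, its inclusion rested on the trend.

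The other 5 genes lower in both were 3 processed pseudogenes, the snoRNA gene SNORD3C and the divergent transcript CD2AP-DT. ENSG00000256664, a processed pseudogene, was at 14.6, 17.2 and 8.88 FPKM in vector, 4.51 and 4.72 with TIF1γ, 29.8 in sh-NC, and 14.9 and 15.1 with sh-TAF15. Its groups did not overlap and its effects were -1.01 (SE 0.17) and -1.05 (SE 0.23). The pseudogene MXRA7P1, with a GC percent of 73.8, had effects of -1.04 and -1.20, which were -0.29 and -0.70 without trend removal.

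Opposite directions, higher with TIF1γ and lower with sh-TAF15, were seen in 10 genes. DDIT3, the stress transcription factor CHOP, was at 11.7, 13.0 and 29.7 FPKM in vector and 18.5 and 64.4 with TIF1γ, and at 13.9 in sh-NC against 5.64 and 6.32 with sh-TAF15. CHAC1, a glutathione-degrading enzyme induced by ATF4 and CHOP, was at 2.64, 3.20 and 25.2 FPKM in vector and 23.7 and 43.1 with TIF1γ, and at 1.38 in sh-NC against 0.739 and 0.638 with sh-TAF15. In both genes vector replicate 3 overlapped the TIF1γ libraries, and the sh-TAF15 libraries lay below sh-NC. The effects were 0.83 (SE 0.61) and -1.36 (SE 0.82) for DDIT3, and 1.57 (SE 0.80) and -0.84 (SE 1.08) for CHAC1.

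NAV3, a microtubule-tip protein, was at 3.18, 0.798 and 0.380 FPKM in vector, 4.82 and 5.43 with TIF1γ, 7.61 in sh-NC, and 2.46 and 3.35 with sh-TAF15. TANC2, a postsynaptic scaffold gene, was at 1.07, 0.942 and 1.99 FPKM in vector, 5.37 and 1.86 with TIF1γ, 8.25 in sh-NC, and 3.14 and 1.81 with sh-TAF15. In both genes sh-NC was the highest of the 8 libraries. After trend removal neither had overlapping groups, with a TIF1γ effect of 1.80 (SE 0.42) for NAV3 and 0.97 (SE 0.36) for TANC2. CSTA, the protease inhibitor cystatin A, had effects of 1.10 and -1.16, and TMCC1, a membrane protein of the endoplasmic reticulum, had 2.02 and -1.0. After trend removal their groups overlapped in 1 of the comparisons each.

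The long noncoding FOXD1-AS1 was at 2.67, 0.898 and 1.29 FPKM in vector, 4.22 and 3.19 with TIF1γ, 20.8 in sh-NC, and 3.99 and 13.0 with sh-TAF15, with no overlap in either comparison. Of the 8 genes lower with TIF1γ and higher with sh-TAF15, 4 were pseudogenes and 4 long noncoding RNAs, and 6 were listed at 0 in at least 1 library. RPL21P16, the most abundant, was at 530, 485 and 438 FPKM in vector, 454 and 34.7 with TIF1γ, 103 in sh-NC, and 518 and 160 with sh-TAF15. A single TIF1γ library thus carried its TIF1γ effect.

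The place of the sh-NC library among all libraries is given here for the groups of members. It was the single lowest of the 8 for 13 of the 32 genes higher in both, with ties not counted. SNRPFP1, RPL32P29, ENSG00000263859, SNRPGP2 and AC025857.2 of the 32 had sh-NC at 0, tied with other libraries. By the same rule sh-NC was lowest for 20.4% of all genes tested. For the 334 genes upward with sh-TAF15 alone or in both, this was 62%. The sh-NC library was the highest for 4 of the 10 genes lower in both, against 23.3% of all genes and 61.9% of the 218 downward with sh-TAF15. Among the 32 higher genes, the sh-TAF15 mean lay above every vector library for 20, within their range for 7 and below it for 5. Over all 10743 genes tested, these counts were 5467, 3126 and 2150. The part of the single control in these results was not tested.

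After trend removal, all treated libraries lay beyond their controls in both effects for 20 of the 32 genes higher in both. The same held for 8 of the 10 lower ones, while 13.6% of all genes tested did so in a shared direction. In single effects, 23.7% of all genes had the TIF1γ libraries apart from vector on that scale. Both sh-TAF15 libraries lay on 1 side of the lone sh-NC for 73.7%. As deposited, some members counted as apart had equal or overlapping values, among them HBA2, HTD2, MXRA7P1, SNORD3C, ENSG00000248794 and SNRPGP2. The members were chosen by effect size, so these shares describe them and support no test. Leaving out each library but sh-NC in turn, the threshold was passed in all 7 fits by DYNC2I1, ENSG00000263859 and SNRPFP1 among the 32, by SVIL, ZNF778 and ENSG00000256664 among the 10, and by FOXD1-AS1 among the 18. Without trend removal, 15 of the 32 and 7 of the 10 stayed past it, as did 15 of the 18 opposite genes. Among those that then fell under the threshold were LMCD1, DYNC2I1, PLLP, RBIS, MMP24OS, RPS10-NUDT3 and H4C8 for TIF1γ, and TSGA10 for sh-TAF15. The number higher in both went from 32 to 21 without vector replicate 1, to 53 without vector replicate 3 and to 51 without TIF1γ replicate 3. The number lower in both went from 10 to 19 without vector replicate 2, to 17 without vector replicate 3, to 25 without TIF1γ replicate 3 and to 18 without sh-TAF15 replicate 2.

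The opposite counts moved as well. Genes higher with TIF1γ and lower with sh-TAF15 went from 10 to 17 without vector replicate 3 and to 21 without TIF1γ replicate 2. Those with the reverse pattern went from 8 to 5 without vector replicate 2 and to 13 without vector replicate 3. In all 7 of these fits more genes stood higher in both effects than in any other class.

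**Figure D3:**
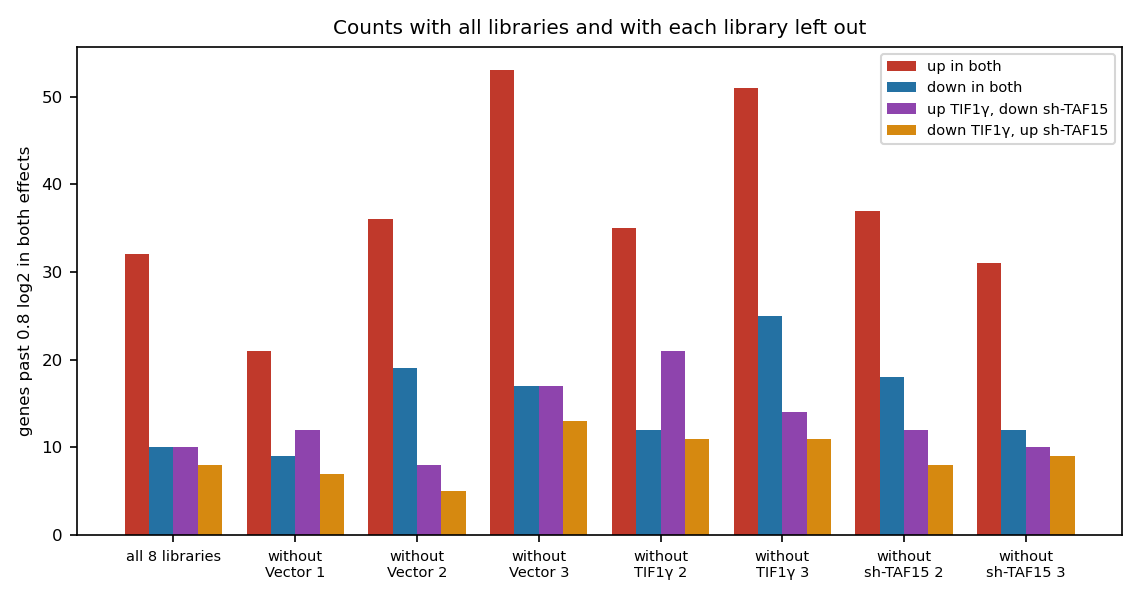
Bars are the numbers of genes past 0.8 log2 in both effects, by direction, with all 8 libraries and with each library left out in turn, on an axis from 0. Genes higher in both form the tallest bar each time, from 21 to 53, and the other classes lie between 5 and 25.

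CDH1 and IL6, the epithelial cadherin and the cytokine around which the study's question turns, are not among the 60. CDH1 was at 5.81, 4.27 and 10.4 FPKM in vector, 8.29 and 10.9 with TIF1γ, 0.857 in sh-NC, and 6.96 and 6.0 with sh-TAF15. The TIF1γ libraries overlapped the vector range (effect 0.52, SE 0.29), whereas sh-TAF15 lay above sh-NC (effect 2.04, SE 0.39, limma adjusted p = 0.172) at about the vector level. Its mean over both effects was 1.28 (SE 0.24, unadjusted p = 6.48e-04, adjusted p = 0.214 in limma). IL6 was at 0.301, 0.226 and 0.674 FPKM in vector, 0.645 and 0.737 with TIF1γ, 24.7 in sh-NC, and 6.67 and 11.3 with sh-TAF15. Its effects had opposite signs, 0.49 and -1.51, and differed by 1.99 (SE 0.48, unadjusted p = 0.00301, adjusted p = 0.654 in limma).

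Other genes of the transition between epithelial and mesenchymal states had small effects. The mesenchymal filament gene VIM had effects of 0.08 and -0.06. The cadherin gene CDH2 had -0.09 and -0.48, and the repressor genes SNAI1 and SNAI2 had -0.24 and -0.04, and 0.39 and -0.68. SNAI2 was at or under 0.104 FPKM in all vector and TIF1γ libraries, and its TIF1γ effect was -0.03 without trend removal. As deposited, SNAI2 was at 5.23 FPKM in sh-NC and at 2.15 and 3.23 with sh-TAF15. CDH2 was at 14.5 in sh-NC and at 10.7 and 8.10 with sh-TAF15, whereas SNAI1 was at 3.92 against 4.35 and 5.96. ZEB1 was too low to be tested, at 3.54 FPKM in sh-NC, 2.39 and 1.14 with sh-TAF15, and no more than 1.02 in the vector and TIF1γ libraries. Among the partners of the targeted proteins, SMAD4 had effects of -0.19 and -0.22, TBP 0.04 and -0.29, and EWSR1 0.35 and 0.07. None of these passed the test.

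Gene lists describe the pathways around the members, of which the lists hold only 3, FN1, DDIT3 and CHAC1. No list member passed the limma test in either effect, their mean or their difference, so lists are given by signs and medians. Over all genes tested, 28.4% had both effects above 0, 31.9% both below, and the medians were -0.00 for TIF1γ and -0.02 for sh-TAF15. Without trend removal these medians were 0.04 and -0.00, and where the median of a list named below changes sign without it, that is stated.

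Cell-cycle genes were below 0 in both effects more often than genes at large. Of 47 S phase genes 31 had both effects below 0 (66%) and 1 both above, with medians of -0.33 for TIF1γ and -0.14 for sh-TAF15. Of 58 G2 and M phase genes 39 had both below (67.2%) and 5 both above, with medians of -0.31 and -0.18. Examples are POLE2, a subunit of the leading-strand DNA polymerase (-1.04 and -0.57), the phosphatase gene CDC25A (-0.74 and -0.63) and the spindle gene DLGAP5 (-0.76 and -0.53). The mean log2 level of the S phase list was 4.72, 4.79 and 4.26 in vector, 4.56 and 3.93 with TIF1γ, 5.03 in sh-NC, and 4.91 and 4.87 with sh-TAF15. The vector and TIF1γ libraries overlapped on that scale, while both sh-TAF15 libraries lay below sh-NC by less than the spread among vector libraries.

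Both effects below 0 were also frequent among lipid synthesis genes and tRNA synthetases. Of 34 cholesterol and fatty acid synthesis genes 19 had both effects below 0 and 4 both above, with medians of -0.18 and -0.10, and of -0.03 and -0.13 without trend removal. HMGCS1, an early enzyme of the mevalonate pathway, had -0.90 and -0.60, and MSMO1, a later enzyme of cholesterol synthesis, had -0.45 and -0.48. Of 20 aminoacyl-tRNA synthetases 10 had both below and 1 both above (EPRS1 with -0.63 and -0.72, RARS1 with -0.72 and -0.40). Of 13 FET and related RNA-binding proteins 9 had both below and 2 both above, with HNRNPM at -0.54 and -0.27. Of 11 genes of the TIF1 family and SMADs 4 had both below (36.4%) and 1 both above, and 45.5% shared a sign, less than the 60.3% of all genes tested.

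Epithelial genes leaned upward in both effects: 11 of 21 had both above 0 and 3 both below, with medians of 0.19 and 0.08. Beside CDH1, the junction gene JUP had 0.40 and 0.97, while the tight-junction gene TJP1 had -0.58 and -0.44. Of 26 mesenchymal genes 13 had both below and 4 both above, FN1 among the latter. The TIF1γ median of the mesenchymal list was -0.07 and turned to 0.17 without trend removal, and its sh-TAF15 median was -0.19 and stayed below 0. The TIF1γ medians of the TGF-beta and SMAD targets (-0.07), the IL6, JAK and STAT3 genes (-0.10), the extracellular matrix and adhesion genes (-0.06) and the galectins, annexins and S100 proteins (-0.01) likewise turned, to 0.16, 0.16, 0.25 and 0.18. Of the 42 tested matrix and adhesion genes, 6 had both effects above 0 and 11 both below. Their sh-TAF15 median was -0.13, and -0.11 without trend removal. Shared signs without trend removal were not counted.

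NRF2 targets had 15 of 38 members above 0 in both and 7 below in both. The aldo-keto reductase genes AKR1C1 (0.71 and 0.84) and AKR1C2 (0.54 and 1.21) had the largest shared effects on the list. Without trend removal their TIF1γ effects were 0.25 and 0.04, and their sh-TAF15 effects 0.56 and 1.00. As deposited, AKR1C2 was at 4465 and 4118 FPKM with TIF1γ, overlapping vector at 3490, 3939 and 4421. For both genes the sh-TAF15 libraries lay above sh-NC but below every vector library. As near-identical copies AKR1C1 and AKR1C2 may share reads. In A549 cells NRF2 is known to be constitutively active. Ribosomal protein genes had 25 of 61 above in both and 18 below in both, with medians of 0.11 and -0.01, and the p53 targets had 9 of 27 above and 7 below. The sh-TAF15 medians of these lists changed sign without trend removal, to 0.07 and -0.02.

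Opposite signs were frequent in some lists. Of 36 unfolded protein response and ATF4 genes 19 were above 0 with TIF1γ and below 0 with sh-TAF15, against 2253 of the 10743 genes tested, and DDIT3 and CHAC1 belong to them. The medians were 0.20 and -0.33. The mean log2 level of the list was 5.51, 5.45 and 5.90 in vector, 5.51 and 6.12 with TIF1γ, 5.49 in sh-NC, and 5.13 and 5.14 with sh-TAF15. The TIF1γ and vector libraries overlapped. The MAPK feedback genes had 12 of 27 members in that corner, 5 both above 0 and 9 both below, with medians of 0.08 and -0.31, although DUSP7, a phosphatase of ERK, was below 0 in both (-0.62 and -0.84). The NF-kB targets had 9 of 23 there, but 10 both above 0 and 4 both below, so that 60.9% shared a sign against 60.3% of all genes tested. Their medians were 0.12 and -0.29. The hypoxia and glycolysis genes had 11 of 34 there, 10 both above and 12 both below (64.7% with a shared sign), with medians of 0.09 and -0.20.

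All 13 mitochondrially encoded mRNAs were above 0 with TIF1γ and 12 of them below 0 with sh-TAF15, with medians of 0.40 and -0.22. Their mean log2 level was 12, 11.7 and 12.8 in vector, 12.9 and 12.4 with TIF1γ, 12.4 in sh-NC, and 12.6 and 11.8 with sh-TAF15. These groups overlapped, and the sh-TAF15 libraries lay on either side of sh-NC. The 13 genes come from 1 polycistronic genome and are not independent of each other. Interferon-stimulated genes were divided (9 of 27 above in both, 4 below in both), as were the 22 TFIID and TBP complex genes (5 above, 8 below), among which TAF10 had 0.45 and 1.03. The 8 alveolar and airway genes had a sh-TAF15 median of -0.07, which was 0.06 without trend removal.

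**Figure D4:**
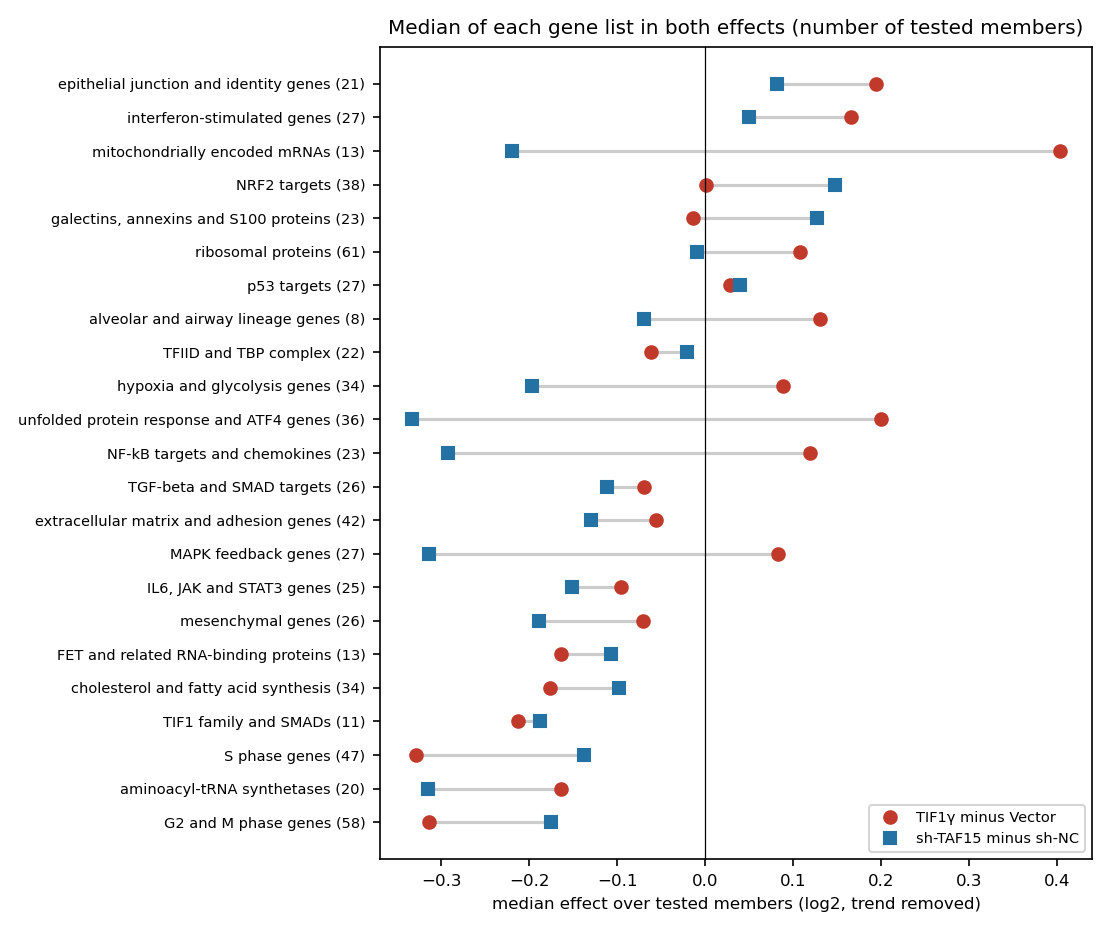
Each row is a gene list with at least 8 tested members (number in parentheses), with the median TIF1γ effect as a circle and the median sh-TAF15 effect as a square, in log2 units after trend removal. The S phase and G2 and M phase lists have both medians below 0, the epithelial list has both above, and the ATF4 and mitochondrial lists have medians on opposite sides.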

How the data were processed

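RNA-seq values of 8 A549 libraries were used. The deposited values are FPKM per gene. How they were computed from the reads is not given in the sources used here. The submitters' processing notes name cutadapt 1.9.1, HISAT2 2.0.1, HTSeq 0.6.1 and GRCh37. Per the labels' protocols, RNA was selected by poly(A) or by removal of ribosomal RNA. As depth in reads is unknown, no counting interval is given.

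Of 57879 identifiers 52324 matched a symbol. Transcript GC percent and length came from the longest GENCODE 29 transcript, and 209 genes past the filter without a transcript were left out. Another 11 genes that passed the filter were set aside for an exact 0 beside 100 FPKM or more. Scaling factors were trimmed means of log2 ratios (30% of ratios and 5% of abundances trimmed), a pseudocount of 1 was added before log2, and natural splines (4 degrees of freedom each) of GC percent and log10 length were removed per library. All 4 groups entered 1 limma 3.58.1 fit in R 4.3.3 (trend, robust, 4 residual degrees of freedom). P-values were adjusted over 10743 genes by the Benjamini-Hochberg method, with 0.05 as the threshold. The shared direction used the larger p of both effects with equal signs. The code was tested on simulated data.

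Members, gene lists, motifs and tests were chosen with earlier results of these data known. Named genes are the targeted and fixed genes, and up to 3 shared and 2 opposite members per list. Added to these are up to 15 protein-coding members per shared direction and 8 per opposite direction. Such members had a mean of at least 3 FPKM and, after trend removal, treated libraries apart from controls. Other members named were chosen after their values were seen, as was the limit of promoters to genes with 1 listed start. Genes on chromosome 8 were also left out of the promoters shown. Alternatives tried were other pseudocounts, filters, scaling, thresholds, trend removal, a replicate block and leaving out libraries.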

Additional observations from a re-analysis of the deposited data

Results flagged for a closer look

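For 2 processed pseudogenes, the TIF1γ and sh-TAF15 effects differed from each other by the limma test of the difference. ENSG00000219928 was listed at 0 in the 6 vector, TIF1γ and sh-NC libraries and at 25.6 and 59.8 FPKM in the sh-TAF15 libraries. Its difference, TIF1γ effect minus sh-TAF15 effect, was -5.35 (adjusted p = 0.0299). HSPB1P1 was likewise at 0 in those 6 and at 11.2 and 17.1 FPKM with sh-TAF15, with a difference of -4.03 (adjusted p = 0.0453). The TIF1γ effects of ENSG00000219928 and HSPB1P1 were -0.33 and -0.65, but 0 without trend removal. Part of each difference thus came from the trend removal. Both genes reached 3 FPKM only in the 2 sh-TAF15 libraries, so the filter admitted them through the group in which they were high. Within groups, the listed values varied only between the 2 sh-TAF15 libraries. For these reasons the p-values of both genes are given as a description and support no test. No fold is given against groups listed at 0. Both are also the only calls for sh-TAF15, both resemble a parent gene in sequence and are uncertain for that reason, and neither is among the 60 genes.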

How the results depend on the processing

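Genes higher in both effects numbered 32 as reported, 50 without trend removal, 49 at a pseudocount of 0.5 and 11 at 3, 93 at a threshold of 0.6 log2 and 14 at 1. Genes lower in both numbered 10, and 69, 22, 4 and 54 under the first 4 of these in the same order (the threshold of 1 moved them less). Genes higher with TIF1γ and lower with sh-TAF15 numbered 10, and 0 at a pseudocount of 3, 16 without a filter, 28 at 0.6 and 4 at 1. The reverse class numbered 8, and 3 at a pseudocount of 3, 14 with a filter of 1 FPKM, 16 at 0.6 and 5 at 1. Pearson's r was 0.247, and 0.441 without trend removal.

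Calls for TIF1γ went from 0 to 2 without trend removal and 2 without a filter. Those for sh-TAF15 went from 2 to 14, 47 and, at a pseudocount of 0.5, 1. Those for the mean effect went from 0 to 11, 24 and, with GC percent alone in the trend, 2. Those for the difference went from 2 to 18 without a filter, and to 1 at a pseudocount of 0.5 or without scaling. The cause was not tested.

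Leaving out 1 library at a time gave 0 to 3 calls for TIF1γ, 0 to 2 for sh-TAF15, 0 to 2 for the mean and 0 to 1 for the difference. It gave 21 to 53 genes higher in both, 9 to 25 lower in both, 8 to 21 and 5 to 13 in the opposite classes, and r from 0.145 to 0.306. The sh-NC library could not be left out.

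Groups share replicate numbers. Across genes, replicate 3 minus replicate 2 correlated at -0.166 between TIF1γ and sh-TAF15 and at -0.382 between vector and sh-TAF15. Between vector and TIF1γ the correlation was 0.348. As the signs differed, the numbers were not taken to pair libraries over all groups. Statements that vector and TIF1γ libraries overlapped disregard the replicate number, and do not tell whether libraries of the same number differed. With the replicate number as a block, sh-TAF15 and the difference had 0 calls and r was 0.172, and the other counts stayed within 1.5 times those reported.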
